A study of Mus musculus with 2 samples.

Results

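The regions described here are the 500 stretches of chromatin, of 107377 measured by single-cell ATAC-seq, that were most accessible in neurons and oligodendrocyte precursor cells (OPCs) alike relative to astrocytes and tanycytes. For each region the level in a cell type of a library was the number of cells with the region divided by all detections of that type and multiplied by 1000000 (CPM), where a detection is 1 region found accessible in 1 cell. On the log2(CPM + 5) scale, the lower of the neuron and OPC levels minus the higher of the astrocyte and pooled tanycyte levels gave a score in each library. The 500 regions with the highest values of the smaller of the 2 scores are called shared regions below. Their levels in neurons, OPCs, astrocytes and pooled tanycytes therefore chose them and are given as a description. The files give regions by number only, so genes, positions and sequences of the regions were not analysed here, and the cell type names are those of the deposited annotation, which could not be checked against marker genes.

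Chromatin that is open to the Tn5 transposase in a nucleus mostly holds promoters and enhancers, and each cell type has its own set of open enhancers beside promoters used by all. Tanycytes are radial glia-like cells of the third ventricle wall and median eminence that keep some capacity to form other cell types in young animals. Neurons and OPCs, the dividing cells that give rise to oligodendrocytes, both arise from radial glial progenitors. NFIA, NFIB and NFIX are transcription factors that promote glial differentiation.

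The study asked whether tanycytes that lack these 3 factors take a more neurogenic course. The control library came from Rax-CreER;CAG-lsl-Sun1-GFP mice. The deficient library came from mice with the same Rax-CreER and CAG-lsl-Sun1-GFP alleles and, in addition, Nfialox/lox, Nfiblox/lox and Nfixlox/lox. When recombination was induced is not stated in the labels. Both libraries were made from mediobasal hypothalamus at postnatal day 8 and share the Rax-CreER driver, which acts in tanycytes, and the Sun1-GFP reporter by which tanycytes and their progeny were sorted. Each genotype had 1 library, with the number of pooled animals not given in the sources used here, so differences between genotypes were not tested and no p-value is given.

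The control library held 8948 cells and the deficient library 13337, with medians of 4549.5 and 4042 detections per cell. Neurons numbered 882 and 2520, OPCs 304 and 274, astrocytes 325 and 223, and tanycytes 7304 and 10055. Neurons and OPCs were the shallowest types, at 3305 to 3432.5 detections per cell in either library, where astrocytes had 4742 and 4615. The libraries had 204 cell barcodes in common. All intervals are exact 95% intervals for counting error only. They assume independent detections, and variation between cells or between animals is not in them.

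In summed detections the shared regions were higher in neurons and OPCs than in any other type, in both libraries. They took 8.28 of every 1000 detections of control neurons and 7.66 of control OPCs. Control astrocytes had 2.40 and control tanycytes 2.03 per 1000. Deficient values were 8.59 in neurons, 9.07 in OPCs, 2.63 in astrocytes and 2.76 in tanycytes. The fold of neurons over astrocytes was 3.45 for control and 3.26 for deficient cells, and that of OPCs over astrocytes 3.19 and 3.45. These folds restate the choice of the regions.

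**Figure D1:**
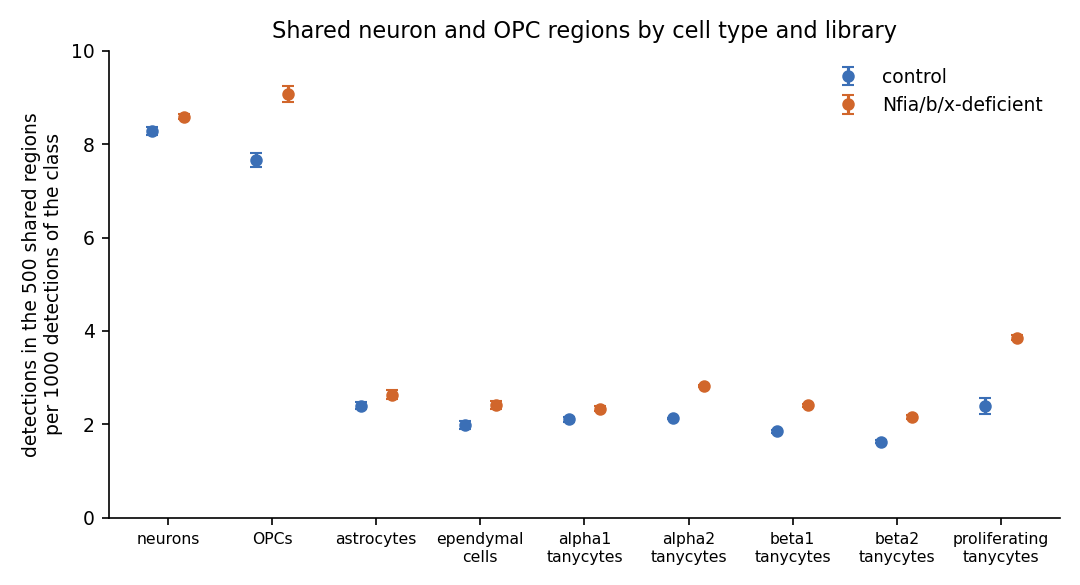
Detections in the 500 shared regions per 1000 detections of each cell type (vertical axis), in the control library (blue) and the Nfia/b/x-deficient library (orange), with exact 95% Poisson intervals for counting error. Neurons and OPCs lie between 7.66 and 9.07 per 1000 and every other type lies between 1.63 and 3.86.

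Single shared regions were found in a small part of the cells. The median shared region was present in 5.67% of control neurons and 5.26% of control OPCs, against 1.85% of control astrocytes and 1.57% of control tanycytes. Deficient medians were 5.69% of neurons, 6.20% of OPCs, 1.79% of astrocytes and 1.83% of tanycytes. OPCs set the precision. A shared region had a median of 16 detections in control OPCs (4 to 116) and 17 in deficient OPCs (3 to 120), but 50 and 143.5 in neurons. The type that limited a region changed from region to region: OPCs were the lower of the pair for 264 regions among control cells and 241 among deficient cells, and neurons for the others.

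Scores of the shared regions ran from 0.48 to 1.55 with a median of 0.62, while the median over all regions was -0.46. Of all regions 6.35% scored above 0 in both libraries, as every shared region did by its choice. A score of at least 1 in both libraries, which is 2-fold on the log2(CPM + 5) scale, was reached by 37 shared regions and by 0.0345% of all regions. Most members were thus moderate in size. The last members, regions 97805, 19938 and 39528, scored 0.48, and the next regions, 43226, 13523 and 87624, scored 0.48, 0.47 and 0.47. Regions 19938, 39528 and 43226 were tied and separated only by row order.

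Region 99444 had the highest score. It was present in 79 of 882 control neurons, 23 of 304 control OPCs, 1 of 325 control astrocytes and 93 of 7304 control tanycytes. Its deficient counts were 175 of 2520 neurons, 20 of 274 OPCs, 1 of 223 astrocytes and 134 of 10055 tanycytes. These are levels of 21.0 and 18.0 CPM in control neurons and OPCs and 17.8 and 18.0 CPM in deficient ones, so the level was much the same in both types and both libraries. Of the 10 highest scores, regions 99444, 7475, 956, 107016 and 44345 were present in 311 to 533 cells in all. Regions 28632, 69049, 23383, 2568 and 77915 were present in 987 to 1588. Region 28632 was at like levels in both types, at 25.2 CPM in control neurons, 25.02 in control OPCs, 31.0 in deficient neurons and 30.6 in deficient OPCs.

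A choice in 1 library can be measured in the other, which that choice did not use. The 500 regions with the highest control scores scored above 0 in the deficient library in 415 cases (83.0%, Clopper-Pearson interval 79.4 to 86.2%), where 15.6% of all regions did. The 500 with the highest deficient scores scored above 0 in the control library in 443 cases (88.6%, 85.5 to 91.3%), against 15.4% of all regions. The direction of the excess was therefore kept by most regions in a library that had no part in choosing them. Its size was not kept. The median score went from 0.89 in the control to 0.46 in the deficient library and, in the reverse choice, from 0.91 to 0.49. Scores of at least 1 were seen for 79 regions (15.8%) and 62 regions (12.4%), against 0.159% and 0.138% of all regions in the deficient and control libraries. The 2 choices had 148 regions in common, or 29.6% of each.

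The sums behave the same way. Regions chosen in the control library took 6.62 per 1000 detections in deficient neurons and 7.63 in deficient OPCs, against 2.78 in deficient astrocytes and 2.18 in deficient tanycytes. That is 2.38-fold for neurons over astrocytes and 2.74-fold for OPCs over astrocytes, compared with 4.12-fold and 3.82-fold in the choosing library. Regions chosen in the deficient library took 6.98 in control neurons and 6.86 in control OPCs, against 2.45 in control astrocytes and 1.81 in control tanycytes. Neurons and OPCs stayed above both other types in each direction.

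**Figure D2:**
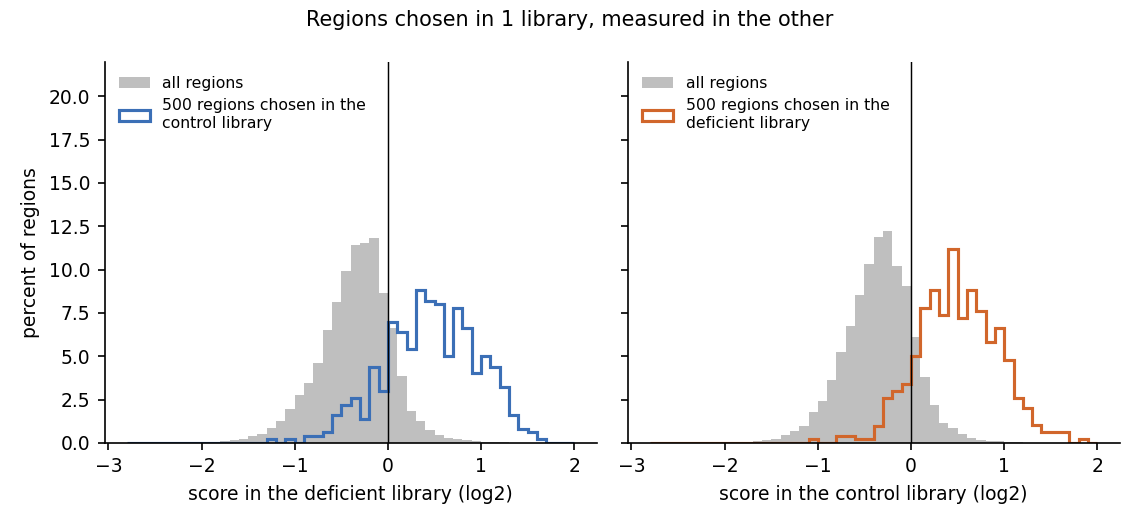
Distribution of the score (horizontal axis, log2 units) in the library not used for the choice, as a percent of regions (vertical axis). The 500 regions chosen in the control (left, blue) or deficient library (right, orange) have medians of 0.46 and 0.49, while most of all regions (grey) lie below 0.

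Whether a shared region leaned to neurons or to OPCs was only partly the same in both libraries. The log2 ratio of neurons over OPCs (pseudocount 1 CPM) had a control median of 0.03 and a deficient median of -0.02. The neuron side was the higher one in both libraries for 160 regions, and the OPC side for 155. The side differed between the libraries for the others, 104 in one direction and 81 in the other. Over the 500 regions the ratios of the libraries had a Pearson correlation of 0.48, a description across regions that share cells and depth. Among the 353 shared regions with at least 50 detections in control neurons and OPCs, 51 were 2-fold or more higher in neurons and 18 in OPCs, against 9.13% and 6.15% of all regions so tested. The deficient counts were 12 and 25 of 490, against 11.3% and 5.32%. Neurons held more cells than OPCs, so regions reached 50 detections mainly through neurons, and regions high in OPCs alone passed less easily. The rule also asks for high levels in both types, so nothing is read from these counts.

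Regions 94472 and 104933 had the highest neuron over OPC ratios, ranked by the smaller of the 2 libraries. Region 94472 was at 18.6 CPM in control neurons and 5.47 in control OPCs, and at 28.4 and 10.8 CPM in the deficient library. Regions 11405 and 28078 leaned most to OPCs in both libraries. Region 11405 was present in 42 of 304 control OPCs and 53 of 274 deficient OPCs, or 32.8 and 47.7 CPM, but at 4.52 and 4.67 CPM in neurons. Its astrocyte levels were 1.14 and 0.88 CPM and its tanycyte levels 0.74 and 0.58 CPM, so it entered the list with a low neuron level above lower astrocyte and tanycyte ones.

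**Figure D3:**
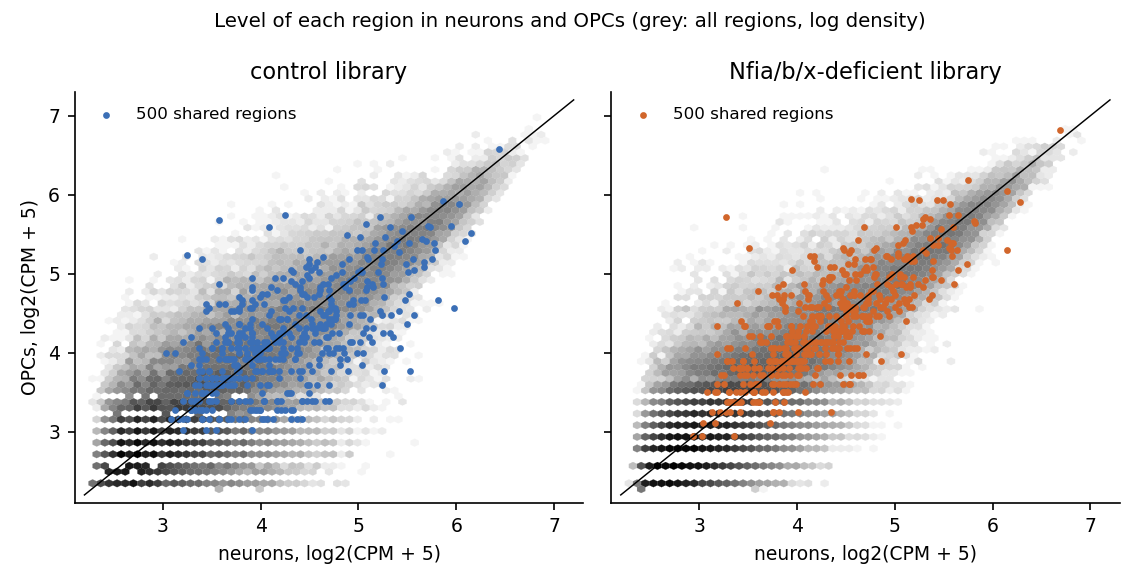
Level of each region in neurons (horizontal axis) and OPCs (vertical axis) as log2(CPM + 5), in the control library (left) and the deficient library (right). Shared regions (coloured points) lie around the line of equal levels, and grey shading gives the density of all 107377 regions on a log scale.

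To see how the signal was spread over cells, shared regions were counted in single cells thinned to 2000 detections. Thinning left out 280 control and 560 deficient neurons, and 62 and 45 OPCs, with fewer detections. Control OPCs then had a median of 15 shared regions per cell (25th to 75th percentile 11 to 21), and control neurons 17 (11 to 24). Deficient OPCs had 17 (13 to 23) and deficient neurons 17 (12 to 23). Astrocytes had 4 and 5. No OPC or neuron in either library had 0 shared regions, and 10 or more were found in 79.3% of control and 90.8% of deficient OPCs. The share with 10 or more was 80.9% and 87.4% in neurons and 6.25% and 6.44% in astrocytes. The regions were chosen as high in these same neurons and OPCs, so the contrast with astrocytes restates the choice. Without thinning, the shares were 95.7% and 98.5% of OPCs, 94.7% and 96.3% of neurons, and 56.0% and 54.3% of astrocytes.

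**Figure D4:**
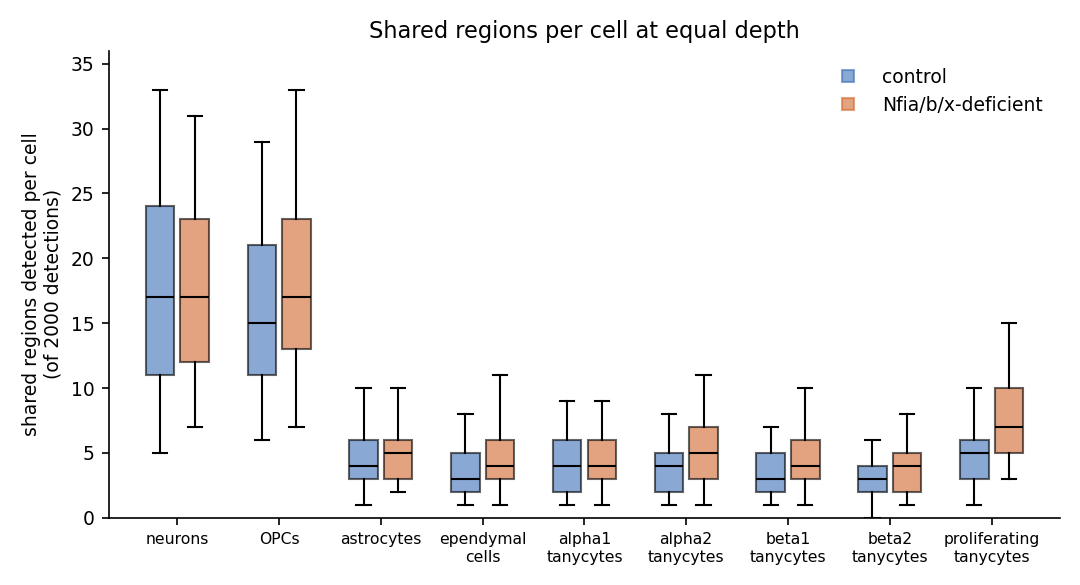
Number of shared regions found per cell among 2000 detections (vertical axis), by cell type and library. Boxes span the 25th to 75th percentile with the median as a line, and whiskers the 5th to 95th percentile of cells. Neurons and OPCs have medians of 15 to 17 and the other types medians of 3 to 7.

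For comparison, 500 neuron regions and 500 OPC regions were chosen by the same score with neurons alone, or OPCs alone, in the high place and the other type among the low ones. They shared 5 and 7 regions with the shared list. The OPCs with the fewest neuron regions per cell (lowest 25%) had a mean of 15.1 shared regions (control) and 16.2 (deficient). Those with the most (highest 25%) had 18.6 and 22.1. The lowest 25% had means of 0.55 and 0.86 neuron regions per cell. The span was wider when OPCs were ordered by OPC regions: from the lowest to the highest 25% of OPCs by OPC regions, the mean number of shared regions went from 10.6 to 22.4 in control and from 12.1 to 23.9 in deficient OPCs. Depth moved with this order, since median detections per cell before thinning went from 5580 to 2925 and from 5171 to 3106, and its part in the result was not tested.

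From the lowest to the highest 25% of control neurons by neuron regions, the mean number of shared regions went from 11.8 to 23.7, and ordered by OPC regions from 16.2 to 21.1. The means in deficient neurons were 14.0 and 21.5 by neuron regions, and 15.3 and 20.9 by OPC regions. Shared regions were chosen as high in these same OPCs and neurons, so the level of these means restates the choice. These orderings were chosen after the data had been seen. Median depth before thinning went from 6173 to 3778 in control and from 5102 to 2930 in deficient neurons when ordered by neuron regions. When ordered by OPC regions it lay between 4367 and 4735.5 in the 4 groups of control neurons and between 3726 and 4297.5 in those of deficient neurons.

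Ependymal cells, the ciliated cells that line the ventricle, had no part in the rule. Their shared regions took 1.99 of every 1000 control detections and 2.41 of every 1000 deficient ones, near the levels of astrocytes and tanycytes. Control ependymal cells were lower than control astrocytes, with a log2 ratio of -0.27 (-0.35 to -0.19), and not separable from control tanycytes (-0.03, -0.09 to 0.04). Deficient ependymal cells were below both deficient astrocytes (-0.13, -0.20 to -0.05) and deficient tanycytes (-0.19, -0.25 to -0.14). The median shared region was at 2.13 CPM in control and 3.23 CPM in deficient ependymal cells, where the median of all regions was 4.26 and 4.84. In this type outside the rule the median shared region thus lay below the median of all regions.

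By single regions, the ependymal level was at least 1 log2(CPM + 5) unit below the lower of neurons and OPCs for 242 shared regions among control cells and 251 among deficient cells, against 0.872% and 0.935% of all regions. It was at or above that lower level for 5 and 3 shared regions, against 68.1% and 65.5% of all regions. The neuron and OPC side of these counts was chosen to be high. Detections were few: 89 shared regions had none in the 133 control ependymal cells and 35 had none in the 265 deficient ones. A count of 0 allows a share of up to 2.26% and 1.13% of cells by counting error. Regions 78159, 6787 and 58265 had the highest ependymal levels, ranked by the lower of the 2 libraries. Region 6787 was present in 25 of 133 control and 35 of 265 deficient ependymal cells, or 26.6 and 28.2 CPM, above control astrocytes (3.42 CPM) and tanycytes (10.8 CPM). Region 78159 was open widely, in 34.9% of control neurons, 38.2% of control OPCs and 27.6% of control tanycytes.

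The rule used tanycytes as a pool weighted by detections and did not rank the subtypes. Alpha2 cells gave 28371961 of the 43238081 control detections in the pool, and proliferating cells 320785. The deficient numbers were 26067852 and 5063545 of 48357247. Low pool levels thus meant mainly low alpha2 levels, so differences between subtypes are not free of the choice. In the control library shared regions took 2.13 per 1000 detections in alpha2, 2.11 in alpha1, 1.85 in beta1 and 1.63 in beta2 tanycytes. Alpha1 and alpha2 cells did not differ beyond counting error (log2 ratio 0.01, -0.03 to 0.06), while alpha2 stood above beta2 cells by 0.38 (0.35 to 0.42). Proliferating tanycytes, with 63 control cells, had 2.40. Among the deficient cells the order of the other subtypes was 2.82 in alpha2, 2.41 in beta1, 2.33 in alpha1 and 2.16 in beta2. Beta2 cells, which lie over the median eminence, were thus lowest in both libraries. They were also the lowest tanycyte subtype for neuron regions (1.00 control, 1.54 deficient) and OPC regions (1.55 and 1.58), so this was not limited to shared regions.

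Proliferating tanycytes were the tanycyte class with the highest level of shared regions. The 1033 deficient cells of this class had 3.86 per 1000 against 2.63 in the other tanycytes, a log2 ratio of 0.55 (0.53 to 0.58). The control ratio was 0.24 (0.14 to 0.35) from 769 detections. Of 470 shared regions with at least 50 detections in deficient tanycytes so split, 37 were 2-fold or more higher in proliferating cells and 3 were lower, against 0.535% and 3.49% of all regions. Their median log2 ratio was 0.39, and that of all regions tested was -0.05. The rule kept pooled tanycyte levels low, and proliferating cells weigh little in that pool. With subtypes weighted equally in the rule the summed ratio was again 0.55. How much of the ratio follows from the choice was not tested, so these counts are a description. At 2000 detections per cell, 28.1% of deficient proliferating tanycytes had 10 or more shared regions. Their level was still below that of neurons, which were 2.23-fold higher, and OPCs, 2.35-fold higher, in the same library. The control library had only 63 cells of this class. Proliferating cells were also above other tanycytes in the comparison lists described earlier: the ratio was 0.34 (0.31 to 0.36) deficient and 0.18 (0.04 to 0.31) control for neuron regions, and 0.29 (0.26 to 0.32) and 0.16 (0.04 to 0.26) for OPC regions. A higher level in proliferating tanycytes was thus not limited to the shared regions.

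Summed shared regions were higher in the deficient library in all 9 cell types, although the neuron difference changed sign with cells thinned to 2000 detections (-0.0500, -0.08 to -0.02), with a pseudocount of 1 in the rule (-0.0116), with 1000 members (-0.0046) and with median-of-ratios scaling (-0.00059). It was largest in proliferating tanycytes and smallest in neurons. In all tanycytes together they went from 2.03 to 2.76 per 1000, a log2 ratio of 0.44 (0.43 to 0.46), or 1.36-fold. The ratio was 0.41 in alpha2, 0.40 in beta2 and 0.38 in beta1 tanycytes, and 0.15 (0.09 to 0.20) in alpha1. Proliferating tanycytes had 0.69 (0.58 to 0.79). The non-proliferating tanycytes as a pool had 0.38 (0.36 to 0.39), so a difference was also present with proliferating cells left out. Outside the tanycytes the ratio was 0.28 (0.19 to 0.36) in ependymal cells, 0.25 (0.20 to 0.29) in OPCs, 0.13 (0.06 to 0.20) in astrocytes and 0.05 (0.03 to 0.07) in neurons.

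The direction in pooled tanycytes and ependymal cells was the same whichever library chose the regions. Regions chosen in the control library had 0.25 in all tanycytes and 0.20 in ependymal cells, and regions chosen in the deficient library 0.53 and 0.30. In neurons the direction did depend on it, with -0.38 for the control choice and 0.35 for the deficient choice. OPCs had -0.06 and 0.49, and astrocytes 0.41 and -0.09. Alpha1 tanycytes had -0.01 (-0.07 to 0.04) and 0.24, so they too had no direction that held under both choices.

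Set beside regions of 1 type, the shared regions fell between them in tanycytes and in the other cell types. Neuron regions had a log2 ratio of 0.64 (0.62 to 0.65) in all tanycytes and OPC regions -0.01 (-0.02 to 0.00). The counting-error intervals of the 3 lists did not overlap in alpha1, alpha2, beta1 or beta2 tanycytes. In beta2 cells, for example, the ratio was 0.62 for neuron regions, 0.40 for shared regions and 0.03 for OPC regions. In proliferating tanycytes the intervals of neuron regions (0.76, 0.63 to 0.89) and shared regions overlapped. In ependymal cells neuron regions (0.34, 0.23 to 0.44) and shared regions (0.28) overlapped too, with OPC regions at 0.01. The order of neuron, shared and OPC regions was the same in astrocytes (0.49, 0.13 and -0.16) and OPCs (0.34, 0.25 and 0.05). It was thus not particular to tanycytes. In neurons it was reversed (-0.19, 0.05 and 0.18). All 3 lists were chosen from levels of neurons, OPCs, astrocytes and pooled tanycytes in these data, with pooled tanycytes among the low types. The ratios in these types are therefore a description. The lists were not tested against each other over animals, since each genotype has 1 library.

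**Figure D5:**
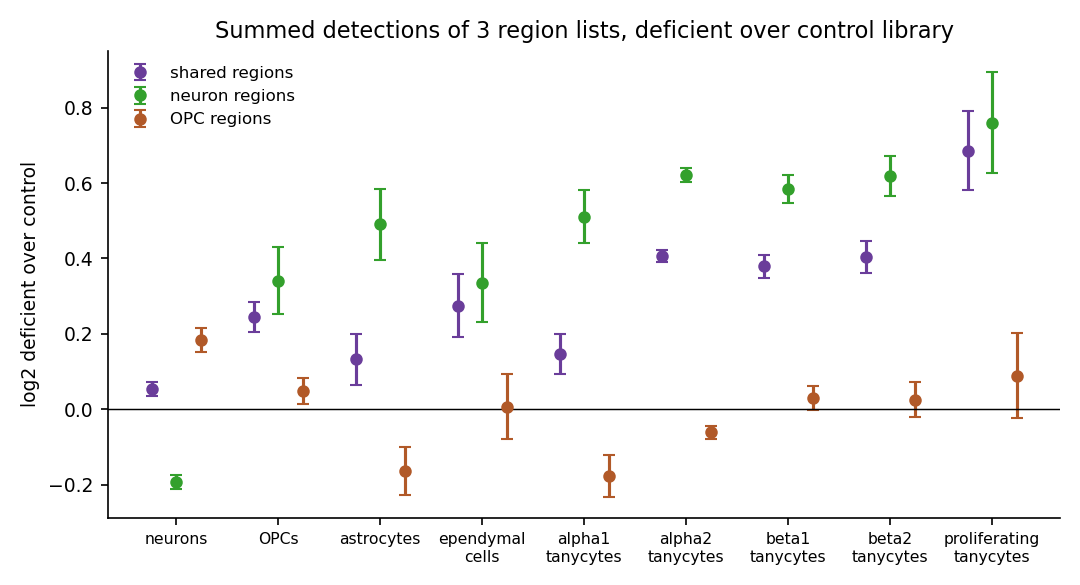
Log2 ratio of summed detections, deficient over control library (vertical axis), for the shared regions (purple), neuron regions (green) and OPC regions (brown) in each cell type, with exact 95% intervals for counting error. The shared regions lie between the other lists in every cell type, at 0.38 to 0.41 in alpha2, beta1 and beta2 tanycytes.

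Most single shared regions followed the sum in tanycytes. Of the 495 with at least 50 detections in tanycytes of both libraries, 418 had a log2 ratio above 0 (pseudocount 1 CPM), where 59.6% of all regions did. Past 2-fold, 29 were higher and 0 were lower in the deficient library, against 0.999% and 2.46% of all regions. Their median was 0.37 and that of all regions 0.07. The filter left out 5 of 500 members. In alpha2 tanycytes 17 of 470 were higher and 1 was lower, against 1.15% and 2.97% of all regions. In beta1 cells 20 of 242 were higher and 0 lower, against 1.60% and 2.32%, and in beta2 cells 10 of 112 were higher and 0 lower, against 1.04% and 2.87%. Alpha1 tanycytes differed in this: 1 of 53 was higher and 5 were lower, against 1.39% and 3.51% of all regions. Only 53 members had the depth for this count in alpha1 cells. Pooled tanycyte levels of both libraries were part of the rule, so the counts in this paragraph are a description.

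Region 74804 had the highest tanycyte ratio. It was present in 143 of 7304 control and 586 of 10055 deficient tanycytes, or 3.31 and 12.1 CPM, a log2 ratio of 1.87 (1.61 to 2.15) without a pseudocount. Its level was higher in deficient cells of each of the 9 types, with intervals above 0 in neurons, ependymal cells and alpha2, beta1 and proliferating tanycytes. Examples are alpha2 tanycytes (3.60 and 13.6 CPM), neurons (9.04 and 25.1 CPM) and OPCs (20.3 and 32.4 CPM). Region 45475 was found in 19 control and 134 deficient tanycytes, or 0.44 and 2.77 CPM. Its level in neurons was nearly the same in both libraries, at 20.2 and 21.0 CPM. In OPCs region 45475 went from 7 to 22 cells (log2 ratio 1.86, 0.58 to 3.33), and its neuron ratio was 0.06 (-0.33 to 0.46). Both regions were named for their tanycyte ratio, so its excess over the ratio in other types is no separate result.

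Regions 24216 and 90981 had the lowest tanycyte ratios. Region 24216 was present in 778 control and 430 deficient tanycytes, a log2 ratio of -1.02 (-1.19 to -0.85), and was also lower in neurons (-0.73, -1.09 to -0.36) and astrocytes (-1.64, -3.20 to -0.34). Region 90981 was present in 165 and 85 tanycytes (-1.12, -1.51 to -0.73). Of the 10 regions with the highest scores, regions 23383 and 77915 were the ones more than 2-fold higher in deficient tanycytes, at 2.82 and 7.71 CPM and at 3.35 and 8.40 CPM, on the scale with the pseudocount. Both were also found in no control proliferating tanycyte, and in 95 and 83 of 1033 deficient ones. Read as up to 3 cells, 0 of 63 control cells allows a share of up to 4.76%, and the exact 95% upper limit is 5.69%.

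In neurons single regions went both ways. Of 500 shared regions, 40 were 2-fold or more higher and 34 lower in the deficient library, close to the 6.03% and 5.61% of all 62373 regions tested, and the median was 0.07 against 0.05 over all. Regions 36046 and 65268 had the highest ratios. Region 36046 was present in 29 of 882 control and 291 of 2520 deficient neurons (log2 ratio 1.94, 1.39 to 2.54). Region 91667 had the lowest, with 97 of 882 and 54 of 2520 neurons (-2.23, -2.74 to -1.74). It was at 19.5 and 19.8 CPM in control and deficient OPCs, so its neuron and OPC levels parted in the deficient library. Region 22678 followed, with 79 control and 48 deficient neurons (-2.11, -2.65 to -1.57). In OPCs 3 of 135 members with enough detections were 2-fold or more higher and 0 were lower, against 0.320% and 0.782% of 14074 regions. The rule chose high OPC levels in both libraries, and members passed the filter through those levels. Nothing is therefore read from the OPC count.

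Tanycytes with 10 or more shared regions were more frequent in the deficient library. Among non-proliferating tanycytes at 2000 detections per cell, 134 of 6747 control cells (1.99%, 1.67 to 2.35%) and 628 of 8239 deficient cells (7.62%, 7.06 to 8.22%) had 10 or more. The intervals treat cells as independent and hold no variation between animals, and the difference between the libraries was not tested. Pooled tanycyte levels of both libraries were part of the rule, so these shares are a description. Without thinning the shares were 43.3% and 49.6%. How doublets were treated is not stated, and the threshold of 10 was set after the data had been seen. The cells with 10 or more were deeper than the rest, with medians of 6124 against 4921 detections in the control and 5688.5 against 4346 in the deficient library. The part of depth in this was not tested. They also held more regions of both other lists. The deficient ones had a mean of 6.50 neuron regions and 5.26 OPC regions, against 3.54 and 3.43 in the remaining cells. For the control ones the means were 4.07 and 6.92 against 2.44 and 3.54.

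Shared regions were not rare regions. The median one was present in 560.5 of all cells (106 to 6572), against 496 over all regions, 429 for neuron regions and 361.5 for OPC regions. In the order of the matrix rows, 9 pairs of shared regions sat in adjacent rows, as did 8 pairs of neuron regions and 9 of OPC regions. Of the 976 rows next to a shared region and not in the list, 140 (14.3%) scored above 0 in both libraries, where 6.35% of all regions did. Rows 1000 places away gave 6.24%. Rows next to neuron regions and OPC regions gave 9.36% and 9.37%. The sources used here do not say what the row order stands for.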

How the data were processed

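The deposited matrix gives presence or absence of each of 107377 regions in each of 22285 cells, with no fragment count; the authors' annotation gives each cell a library and 1 of 9 types. Reads were processed, per the labels, with the default Cell Ranger ATAC 1.1.0 pipeline. The submitters' processing notes list mm10, Cell Ranger 3.1, Signac 0.2.5, Seurat and MACS2, with no roles named. Region calling, cell filters, doublet treatment and type naming are not given in the sources used here, and no doublets were removed here.

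Cells were taken in annotation order. As a check of this order, cells were assigned by profiles of the other cells of their library: the deposited type was returned for 81.7% (control) and 76.5% (deficient), and for 46.5% and 34.3% after shuffling. Detections were summed per type and library. Presence saturates at 1 per cell. Ratios have exact conditional binomial intervals, sums exact Poisson and shares Clopper-Pearson intervals. A count of 0 was read as allowing up to 3 cells. Single-region ratios used a pseudocount of 1 CPM and at least 50 detections over the groups compared; the extremes were ranked so, and 2-fold calls made so.

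Named by rule were the 10 highest scores, the 3 regions on each side of the threshold score, the 3 highest ependymal levels and the 2 most extreme regions of each ratio. The interval of a ratio for which a region was named leaves that choice out. Members and lists were chosen with earlier results of these data known. The score was tested on simulated data. Software was matplotlib 3.10.9, pandas 2.3.3, scipy 1.17.1 and numpy 2.4.6 in Python 3.11.15.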

Additional observations from a re-analysis of the deposited data

Results flagged for a closer look

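The contrast of neurons over OPCs in the shared regions had opposite signs in the 2 libraries. Neurons were above OPCs in the control library (log2 ratio 0.1134, 0.08 to 0.15) and below them in the deficient library (-0.0788, -0.11 to -0.05). Each genotype has 1 library, so this difference was not tested. Neuron and OPC levels of both libraries also chose the regions, and the intervals leave that choice out. The signs are therefore a description. The opposite signs did not hold under all alternatives. With at least 20 detections in neurons and in OPCs, the control ratio was -0.0687 (-0.09 to -0.04), so that both libraries were negative. Without the 25% of OPCs with most neuron-region detections, the deficient ratio was -0.0166 (-0.05 to 0.02), an interval that includes 0.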

How the results depend on the processing

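Each genotype has 1 library, and single regions have few detections in OPCs, astrocytes and ependymal cells. Intervals cover counting error only, and most alternatives moved values beyond them. No paired analysis was possible because each genotype has 1 library. Leaving out a replicate was likewise not possible.

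The tanycyte ratio of deficient over control (0.44) kept its sign in all alternatives run: 0.50 with a pseudocount of 1 in the rule, 0.21 with at least 20 detections in neurons and OPCs, 0.52 with 250 and 0.37 with 1000 members, 0.46 with subtypes weighted equally, 0.46 without the deepest 5% of cells, 0.25 and 0.53 for members chosen in the control and deficient library, and 0.36 with median-of-ratios scaling. The ratio of proliferating over other tanycytes (0.55) was 0.59, 0.34, 0.62 and 0.48 under the first 4 of these, 0.61 without the deepest cells, and 0.48 and 0.61 for members chosen in the control and deficient library. The ependymal ratio (0.28) was 0.0711 with at least 20 detections and 0.16 with cells thinned to 2000 detections.

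The neuron ratio (0.05) had no stable sign: -0.0116 with a pseudocount of 1, -0.0046 with 1000 members, -0.0500 with thinned cells, -0.38 for members chosen in the control library and -0.00059 with median-of-ratios scaling, but 0.0270 with at least 20 detections, 0.0923 with 250 members, 0.0164 without the deepest cells and 0.35 for the deficient choice. The OPC ratio (0.25) was -0.0632 for the control choice, 0.49 for the deficient choice, 0.16 with at least 20 detections, 0.19 with thinned cells and 0.18 with median-of-ratios scaling.

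Neurons over OPCs in the control library (0.11) became -0.0687 with at least 20 detections, 0.16 with a pseudocount of 1 and 0.0259 for the deficient choice. In the deficient library (-0.08) it was -0.20 with at least 20 detections, -0.11 with 1000 members, -0.15 with thinned cells, and -0.20 and -0.11 for the control and deficient choice. Without the 25% of OPCs with most neuron-region detections, an alternative chosen after seeing the data, these were 0.21 and -0.0166.

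The share of control-chosen regions above 0 in the deficient library (83.0%) was 67.8% with thinned cells, and 15.8% at a score of 1. The reverse share (88.6%) was 85.2% with a pseudocount of 1, 82.2% with at least 20 detections, 75% with thinned cells and 12.4% at a score of 1. The minimum of 20 detections kept 158 of the 500 members. The cause of these shifts was not tested.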
